A study of Saccharomyces cerevisiae with 4 samples.

Results

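The genes described here encode the yeast proteasome: 14 genes for the core particle (20S), 18 for the regulatory particle (19S), and RPN4, ECM29 and UBI4. They were taken by their systematic identifiers from a table of 6688 identifiers, and all 35 were found and passed the filter on low counts. The data are RNA-seq of polyadenylated RNA from budding yeast, Saccharomyces cerevisiae, with 2 libraries of the nhp6ab strain and 2 of wild-type (WT) cells. All cells were in exponential growth in YPD, a rich glucose medium. The name nhp6ab is the usual one for a strain without NHP6A and NHP6B, which encode small DNA-bending HMG-box proteins that work with the histone chaperone FACT. The labels name no other allele and no strain background. They are silent on whether the 2 replicates of a strain came from different cultures. Every p-value is thus set against library-to-library spread that may be technical. No spike-in is described, so every change is relative to the rest of the transcriptome, and fewer cells of one kind cannot be told apart from less RNA per cell.

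The proteasome degrades proteins that carry ubiquitin chains. Its core particle is a barrel of stacked rings: outer α rings that gate the entry and inner β rings, in which Pre3, Pup1 and Pre2 are the proteolytic subunits. The regulatory particle caps the barrel. Its base holds the Rpt ATPases, which unfold substrates and feed them into the barrel, and its lid holds Rpn11, which removes the ubiquitin chain. In yeast the subunit genes are activated together by Rpn4, a short-lived transcription factor that is itself a proteasome substrate, and that binds a promoter element called PACE (proteasome-associated control element).

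Library depth was 22622592 to 29115870 expected counts, and members had 2537 to 20672 counts in each library. CPM values are counts scaled to the library total times the TMM factor of edgeR. These factors were 1.06 and 1.10 in nhp6ab, against 0.924 and 0.934 in WT. As a check of the labels, NHP6A had 11.1 and 12.0 CPM in nhp6ab, against 122.5 and 129.6 CPM in WT (log2 fold change -3.44 ± 0.068 SE). NHP6B had 33.4 and 32.6 CPM in nhp6ab, against 80.0 and 86.0 CPM in WT (-1.33 ± 0.060 SE). Both were therefore lower in the nhp6ab libraries, NHP6B less so. Across the 6422 genes tested with edgeR's quasi-likelihood test, 24.5% were called higher in nhp6ab and 25.0% lower at an adjusted p under 0.05. No member shares bases with another gene of the RefSeq annotation.

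The PACE letters GGTGGCAAA were searched on both strands from 250 bases before to 50 bases after each start codon, in the R64 genome with RefSeq gene starts. They were found in 12 of 14 core promoters (85.7%) and 15 of 18 regulatory promoters (83.3%), against 1.2% of all 6001 promoter windows. That background includes the members, and the share was 0.721% in the 5966 windows of genes that are no member. PACE is named for its link to proteasome genes, so these shares are a description and no test. PUP1, PRE5 and RPN8 held the same letters with the substitution G1A, counted from the first base of the motif. With any first base (NGTGGCAAA, which includes PACE), 30 of 32 subunit promoters had a match, against 2.38% of all windows and 1.86% of non-member windows. RPN10 and RPN13 had none. The 30 matches lay 75 to 174 bases before the start codon, with a median of 117, and 22 of them read in the direction of the gene. ECM29 and UBI4 each had an exact match as well, and the RPN4 window had none. The matches of the members that the results turn on, and of RPN8 as the remaining G1A match, are shown 5′ to 3′ on the motif's strand with its letters in capitals, from RefSeq R64.

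PUP1: aacccggccgAGTGGCAAAataccaaaaag
PRE5: cctattatagAGTGGCAAAattaaaaattc
RPN8: gggatacctcAGTGGCAAAtcgttactcaa
PUP2: aaccaagaccGGTGGCAAAagagtaaccta
PRE6: ctttcccttccGGTGGCAAAagaatcttcg
PRE2: acagcaaaagGGTGGCAAAacgaagaatag
RPN11: ggacctccaaGGTGGCAAAttcacaagaaa
PRE1: aaatctttacGGTGGCAAAaaataaagaaa
RPN7: aatcctcaatgGGTGGCAAActtaacttat
ECM29: gccttttcttGGTGGCAAAaaaaaggtact
UBI4: gcgaattcaaaGGTGGCAAAacccggagcc

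On the minus strand lie the sites of PUP1 (chrXV:631890-631919), RPN8 (chrXV:817084-817113), PUP2 (chrVII:999225-999254), PRE6 (chrXV:255218-255247) and RPN7 (chrXVI:742290-742319). On the plus strand lie those of PRE5 (chrXIII:901552-901581), PRE2 (chrXVI:732184-732213), RPN11 (chrVI:153259-153288), PRE1 (chrV:177683-177712), ECM29 (chrVIII:39943-39972) and UBI4 (chrXII:65348-65377). A match is a description of the letters and does not show binding. The median log2 fold change was 0.041 in the 27 subunit genes with an exact match and 0.089 in the 5 without one. The 42 tested genes outside the members that had an exact match had a median of 0.059. Of these 11 were called higher and 11 lower, near the 24.5% and 25.0% of all genes. Whether any of them shares its match with the promoter of a neighbouring member was not tested. No order by distance to the start codon was tested.

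**Figure D1:**
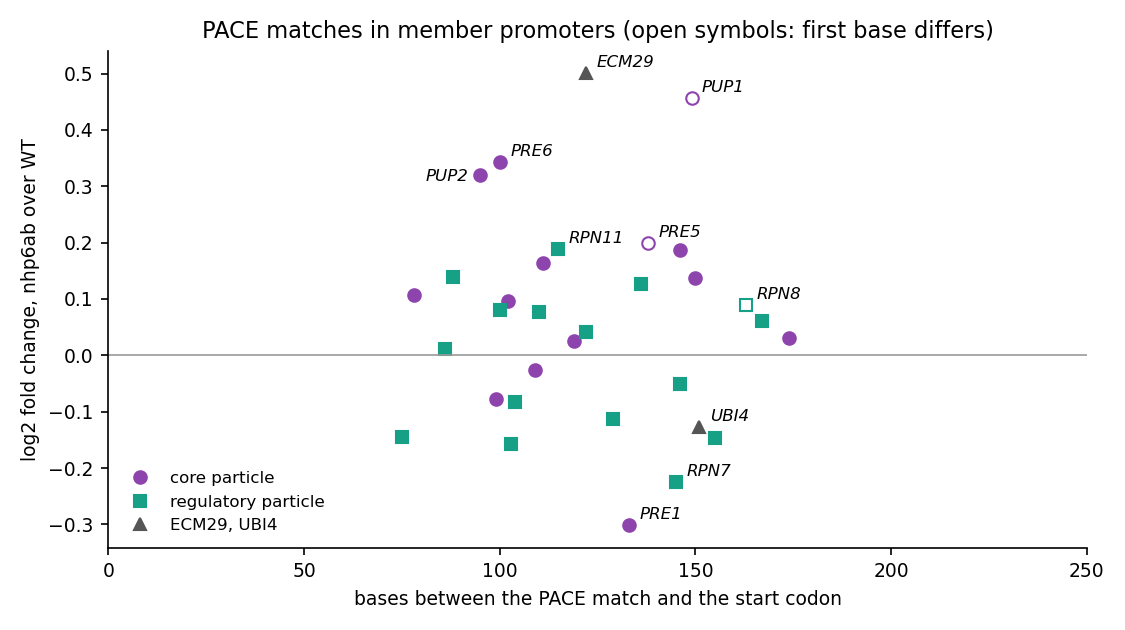
Log2 fold change (nhp6ab over WT, y axis) of each member with a PACE match, against the number of bases between the match and the start codon (x axis). Matches lie 75 to 174 bases upstream in subunit genes, and PUP1, PRE5 and RPN8 (open symbols) differ from PACE in the first base.

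The comparison of nhp6ab with WT sets the transcripts of this complex in the mutant strain against those in wild-type cells. Most subunit genes were not called, whereas RPN4 fell, ECM29 rose and several core genes rose. Of the 14 core genes 5 were called higher and 1 lower, with a median log2 fold change of 0.12. Of the 18 regulatory genes 1 was called higher and 1 lower, with a median of 0.030. Among all genes 24.5% were called higher and 25.0% lower, with a median of 0.0071. With every library in the fit, the share of core genes called higher was above that background. Without nhp6ab replicate 1 or WT replicate 2 it was near the share of all genes called higher in the same fit. The shares of core genes called lower and of regulatory genes called either way were below the background with every library in the fit. Core genes called higher numbered 3 without nhp6ab replicate 1, 4 without nhp6ab replicate 2, 3 without WT replicate 1 and 2 without WT replicate 2. The regulatory call for higher was lost without nhp6ab replicate 1, WT replicate 1 or WT replicate 2, and that for lower without nhp6ab replicate 2, WT replicate 1 or WT replicate 2. The regulatory median was 0.00022 without WT replicate 1 and 0.059 without WT replicate 2. With TMM factors and every library in the fit, no subunit moved by more than 0.46 on the log2 scale, and 22 of the 32 estimates were above 0. This bound depends on scaling: with library size alone PUP1 had 0.67, where the median of all genes was 0.22.

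**Figure D2:**
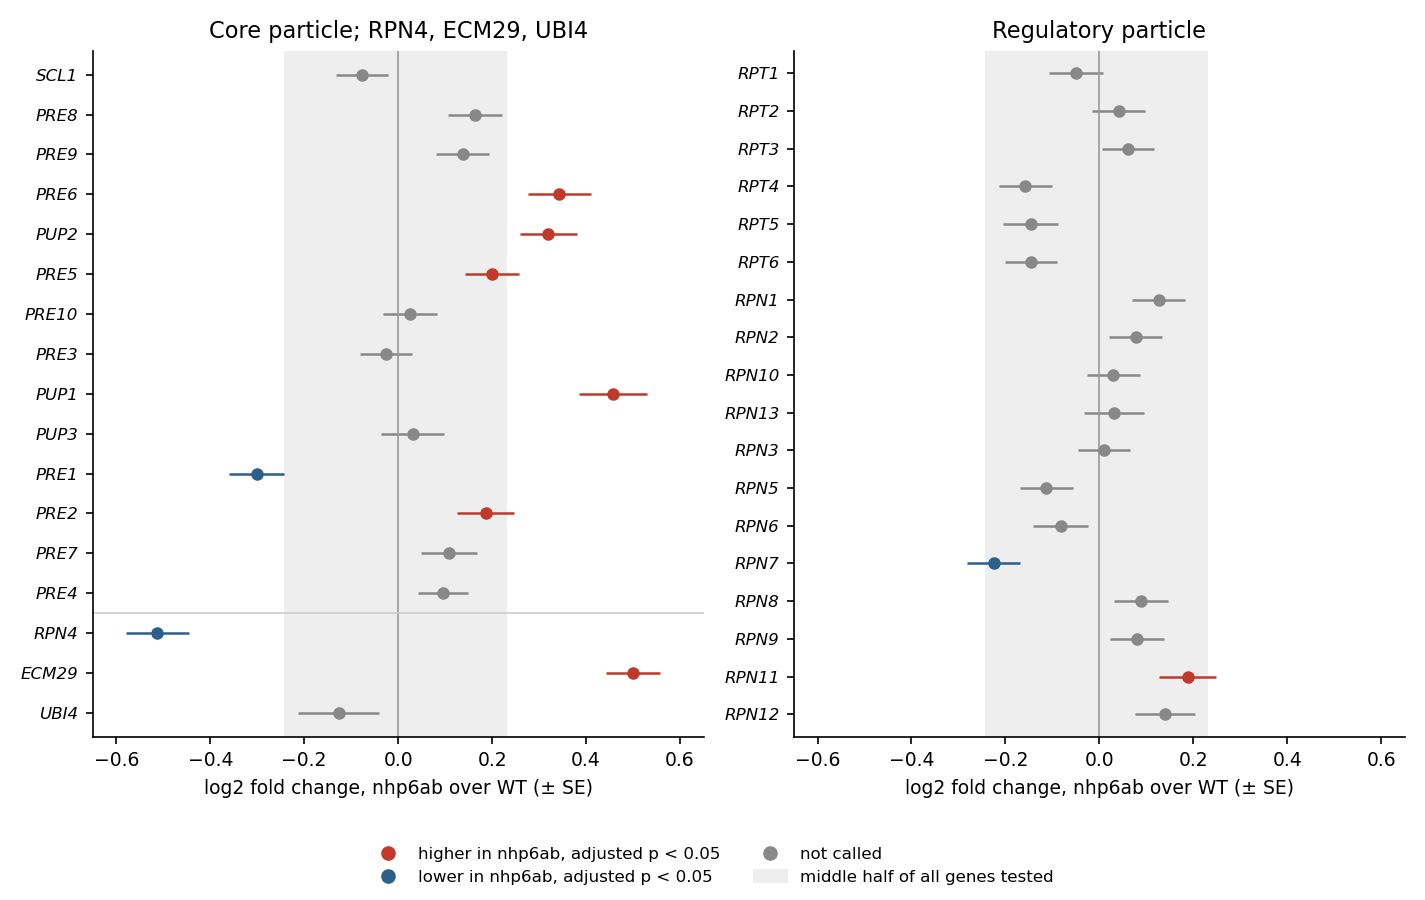
Log2 fold change with its standard error (x axis) of each of the 35 members, nhp6ab over WT, with core genes, RPN4, ECM29 and UBI4 on the left and regulatory genes on the right. Red and blue points passed an adjusted p of 0.05 in edgeR, and the grey band is the interquartile range of all genes tested. PUP1, PRE6, PUP2 and ECM29 lie to its right and PRE1 and RPN4 to its left, and all regulatory genes lie within it.

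In the α rings 3 of 7 genes rose and none fell, where 24.5% of all genes were called higher and 25.0% lower. PUP2 (YGR253C), the α5 subunit, had 341 and 332 CPM in nhp6ab, against 277 and 262 CPM in WT. PRE6 (YOL038W), the α4 subunit, had 263 and 244 CPM in nhp6ab, against 207 and 192 CPM in WT. Both nhp6ab libraries were above both WT libraries for each gene, as in 38.9% of all genes tested. PUP2 and PRE6 had log2 fold changes of 0.32 ± 0.060 SE (adjusted p = 0.00451, edgeR) and 0.34 ± 0.067 SE (adjusted p = 0.00547). PRE6 lost its call without WT replicate 2 (adjusted p = 0.0547).

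PRE5, the α6 subunit, had 329 and 319.98 CPM in nhp6ab, against 288 and 277 CPM in WT, and rose by less (0.20 ± 0.058 SE, adjusted p = 0.0253, edgeR). Its call was lost without nhp6ab replicate 1 (adjusted p = 0.113), WT replicate 1 (0.0642) or WT replicate 2 (0.115). The other α genes were not called. PRE8 (α2) and PRE9 (α3, the α subunit that yeast can live without) had log2 fold changes of 0.16 and 0.14, with adjusted p of 0.0518 and 0.0805 in edgeR. PRE8 passed the threshold in limma-voom (adjusted p = 0.0377) and with a filter of 10 CPM (0.0418). For both, the nhp6ab libraries lay above the WT libraries in CPM, as in 38.9% of all genes tested. PRE10 (α7) and SCL1 (α1) had 0.025 and -0.077.

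In the β rings the genes went both ways. PUP1 (YOR157C; chromosome XV, 630966 to 631751), the β2 subunit with trypsin-like activity, had 273 and 260.3 CPM in nhp6ab, against 206 and 183 CPM in WT. This was the largest increase of any subunit (0.46 ± 0.072 SE, adjusted p = 0.00226, edgeR), and PUP1 and PUP2 were the subunit genes called higher under every one of 14 alternatives. PRE2, the β5 subunit with chymotrypsin-like activity, had 415 and 401 CPM in nhp6ab, against 369 and 348 CPM in WT (0.19 ± 0.061 SE, adjusted p = 0.0399). PRE2 lost its call when any of the 4 libraries was left out (adjusted p from 0.0659 to 0.179).

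PRE1 (YER012W; chromosome V, 177835 to 178431), the β4 subunit, was the only core gene called lower. It had 289.7 and 279 CPM in nhp6ab, against 357 and 344 CPM in WT (-0.30 ± 0.058 SE, adjusted p = 0.00521, edgeR). Its call was lost with library size alone (-0.089, adjusted p = 0.208) and on the log2(TPM + 1) scale (-0.0079, adjusted p = 0.903), where the median of all genes was 0.22 and 0.28. PRE3, the β1 subunit with caspase-like activity and the only member with an intron, had 293 and 285 CPM in nhp6ab, against 295 and 294 CPM in WT (-0.026 ± 0.055 SE). PRE7 (β6), PRE4 (β7) and PUP3 (β3) had log2 fold changes of 0.11, 0.096 and 0.031 and were not called. Of the proteolytic subunits, therefore, the genes for β2 and β5 were called and that for β1 was not.

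With TMM factors the genes of the regulatory particle stayed closer to zero, between -0.22 and 0.19 on the log2 scale. None of the 6 ATPase genes was called, where 24.5% of all genes were called higher and 25.0% lower. RPT4, RPT6 and RPT5 had the lowest estimates of the ATPase genes, -0.16, -0.15 and -0.15, and RPT1 had -0.050. In each of these 4 genes the nhp6ab libraries lay below the WT libraries in CPM and above them in TPM. Of all genes tested, 38.7% lay below in CPM and 69.2% above in TPM. RPT6 had 443 and 444 CPM in nhp6ab, against 489.5 and 491 CPM in WT (adjusted p = 0.0641, edgeR). RPT4 passed the threshold in DESeq2 (adjusted p = 0.0477), limma-voom (0.0335), with upper quartile factors (0.0329) and with a filter of 10 CPM (0.0471), and RPT6 in limma-voom (0.0362) and with upper quartile factors (0.0404). RPT3 and RPT2 had 0.061 and 0.041.

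The remaining base genes were not called either, where 24.5% of all genes were called higher and 25.0% lower. RPN1 and RPN2, the large scaffold subunits, had log2 fold changes of 0.13 and 0.078. RPN10 and RPN13, the ubiquitin receptors, had 0.030 and 0.031, with overlapping groups. RPN13 had 141 and 144 CPM in nhp6ab, against 133 and 147 CPM in WT, so the WT libraries enclosed those of nhp6ab.

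Of the 8 lid genes among the members 1 rose and 1 fell, where 24.5% of all genes were called higher and 25.0% lower. RPN11 (YFR004W), the deubiquitinating subunit, had 381 and 359 CPM in nhp6ab, against 321 and 328 CPM in WT (0.19 ± 0.060 SE, adjusted p = 0.0372, edgeR). RPN7 (YPR108W), a scaffold subunit of the lid, had 219 and 209.9 CPM in nhp6ab, against 247 and 254 CPM in WT (-0.22 ± 0.057 SE, adjusted p = 0.0153). The groups did not overlap in CPM for either gene, where 38.9% of all genes lay above and 38.7% below. Both calls depended on single libraries. In TPM the direction of RPN7 was reversed, with 156 and 154 TPM in nhp6ab, against 143 and 153 TPM in WT (0.068 on log2(TPM + 1), not called). RPN11 was not called without nhp6ab replicate 1 (adjusted p = 0.208), WT replicate 1 (0.139) or WT replicate 2 (0.103), and RPN7 was not called without nhp6ab replicate 2 (0.0569), WT replicate 1 (0.0589) or WT replicate 2 (0.0843), nor with library size alone (-0.013, adjusted p = 0.853). RPN12, RPN8, RPN9 and RPN3 had 0.14, 0.089, 0.081 and 0.011, and RPN5 and RPN6 had -0.11 and -0.083.

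RPN4 (YDL020C; chromosome IV, 415113 to 416708), the activator of the subunit genes, fell. It had 342 and 329 CPM in nhp6ab, against 457 and 499.9 CPM in WT, which is 0.701 of the WT level (log2 fold change -0.51 ± 0.067 SE, adjusted p = 0.000987, edgeR). Both nhp6ab libraries were below both WT libraries in CPM, as in 38.7% of all genes tested. The call was kept under all 14 alternatives. The decrease was smaller on the log2(TPM + 1) scale (-0.22, adjusted p = 0.041 in limma), where the median of all genes was 0.28. The subunit genes had a median of 0.051 in the same fit as the -0.51 of RPN4.

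The genes known to act on RPN4 or on its protein were set beside it. Its transcriptional activators Yap1, Pdr1, Pdr3 and Hsf1 had log2 fold changes of 0.10, 0.043, -0.068 and 0.0050. Of these 4 genes 0 were called, where 24.5% of all genes were called higher and 25.0% lower. The ubiquitin ligase that marks the Rpn4 protein for degradation consists of Ubr2, its partner Mub1 and the conjugating enzyme Rad6, and the genes of these 3 went different ways. MUB1 had 47.9 and 52.4 CPM in nhp6ab, against 30.4 and 29.998 CPM in WT (0.73 ± 0.068 SE, adjusted p = 0.000233, edgeR). RAD6, which also ubiquitinates histone H2B, had 38.4 and 41.0 CPM in nhp6ab, against 60.2 and 60.7 CPM in WT (-0.61 ± 0.059 SE, adjusted p = 0.000282). UBR2 had 50.4 and 48.0 CPM in nhp6ab, against 44.7 and 43.0 CPM in WT, and was not called (0.17 ± 0.060 SE, adjusted p = 0.0555).

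ECM29 (YHL030W; chromosome VIII, 40084 to 45690) encodes a large HEAT-repeat protein that binds both core and regulatory particle. It had 176 and 165 CPM in nhp6ab, against 121 and 120.04 CPM in WT (0.50 ± 0.057 SE, adjusted p = 0.000563, edgeR), the largest increase among the members. It was called higher under all 14 alternatives. Per length, its level was far below those of the subunit genes, at 28.3 and 27.2 TPM in nhp6ab and 15.8 and 16.2 TPM in WT. In WT it lay at the 24.1 percentile of all genes tested, whereas the subunit genes lay between 80.9 and 94.7.

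UBI4, the polyubiquitin gene that supplies ubiquitin under stress, did not differ beyond the spread of its replicates. It had 671 and 601 CPM in nhp6ab, against 649.9 and 739 CPM in WT (-0.13 ± 0.085 SE, adjusted p = 0.252, edgeR). The groups overlapped, and its replicates lay further apart on the log2 scale than those of any other member in either strain. By contrast, the genes that encode ubiquitin fused to a ribosomal protein, RPL40A, RPL40B and RPS31, all fell, where 25.0% of all genes were called lower. Their log2 fold changes were -0.57, -0.58 and -0.56 (adjusted p = 0.000207, 0.00018 and 0.000104, edgeR). Whether the fall goes with their ribosomal or their ubiquitin part was not tested. RPS31 had 3459 and 3453 CPM in nhp6ab, against 5164 and 5044 CPM in WT. The 5 ubiquitin units of UBI4, of 228 bases each, are 80.3 to 90.4% identical to each other and 80.7 to 86.8% identical to that of RPS31, and the longest identical run between the coding sequences of UBI4 and RPS31 is 29 bases. The effect of reads that fit more than 1 ubiquitin gene was not tested.

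**Figure D3:**
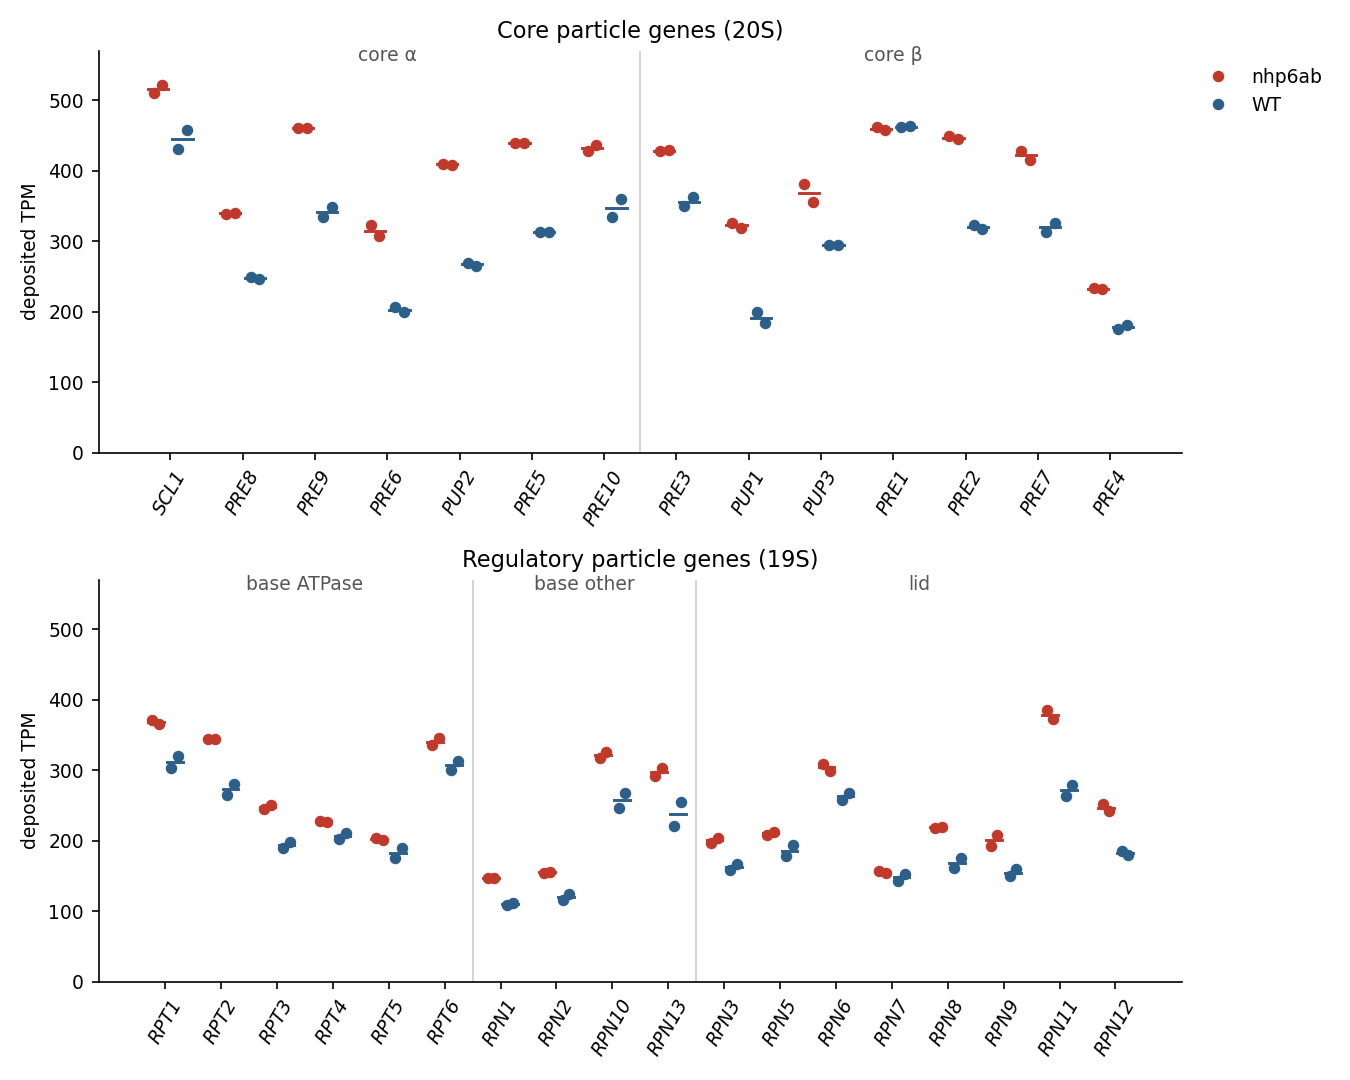
Deposited TPM (y axis) of each core gene (upper panel) and regulatory gene (lower panel), with the nhp6ab libraries in red on the left of each pair and WT in blue on the right, points for libraries and lines for means. PRE1, at about 460 TPM in both strains, is the subunit gene whose libraries overlap.

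Levels per length can be compared between genes on the TPM scale. Core genes averaged 399 ± 2.57 TPM in nhp6ab and 306 ± 3.31 TPM in WT (SD over libraries, n = 2 each), and regulatory genes 253 ± 0.765 TPM in nhp6ab and 207 ± 8.69 TPM in WT. On this scale 31 of the 32 subunit genes had both nhp6ab libraries above both WT libraries, PRE1 being the exception, but so did 69.2% of all genes tested. On CPM with TMM factors 18 were above and 10 below, where 38.9% and 38.7% of all genes were. With library size alone 12 core and 12 regulatory genes were called higher and 0 lower, against 47.1% of all genes higher and 12.5% lower. On log2(TPM + 1) 13 core and 14 regulatory genes were called higher and 0 lower, against 55.5% higher and 9.61% lower, and the median of all genes was 0.28. With library size alone and on both TPM scales the estimates of SCL1, PRE3, RPT1, RPT4, RPT5, RPT6, RPN5, RPN6 and UBI4 turned from below to above 0, and on the TPM scales that of RPN7 did too.

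A scaling factor of a library cancels in the ratio of the particles. Summed over genes, core transcripts had 5617 and 5566 TPM in nhp6ab, against 4250.5 and 4316 TPM in WT. Regulatory transcripts had 4552 and 4572 TPM in nhp6ab, against 3622 and 3843 TPM in WT. The core to regulatory ratio was 1.23 and 1.22 in nhp6ab, against 1.17 and 1.12 in WT, so the strains did not overlap and the mean ratio was 1.07 times that of WT. In CPM the ratio was 0.714 and 0.706 in nhp6ab, against 0.671 and 0.645 in WT. The difference between the median log2 fold changes of core and regulatory genes was 0.092, and it ran from 0.060 without WT replicate 2 to 0.13 without nhp6ab replicate 2. These values were not tested, since the genes of a particle are not replicates. Core genes are shorter, and the 799 other genes of their length, 597 to 867 bases, had a median of -0.039. The 4568 other genes of 471 to 2982 bases, the range of the regulatory genes, had -0.012. The second range contains the first, so these medians do not set short genes against long ones. Whether length bears on the difference between the particles was not tested.

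**Figure D4:**
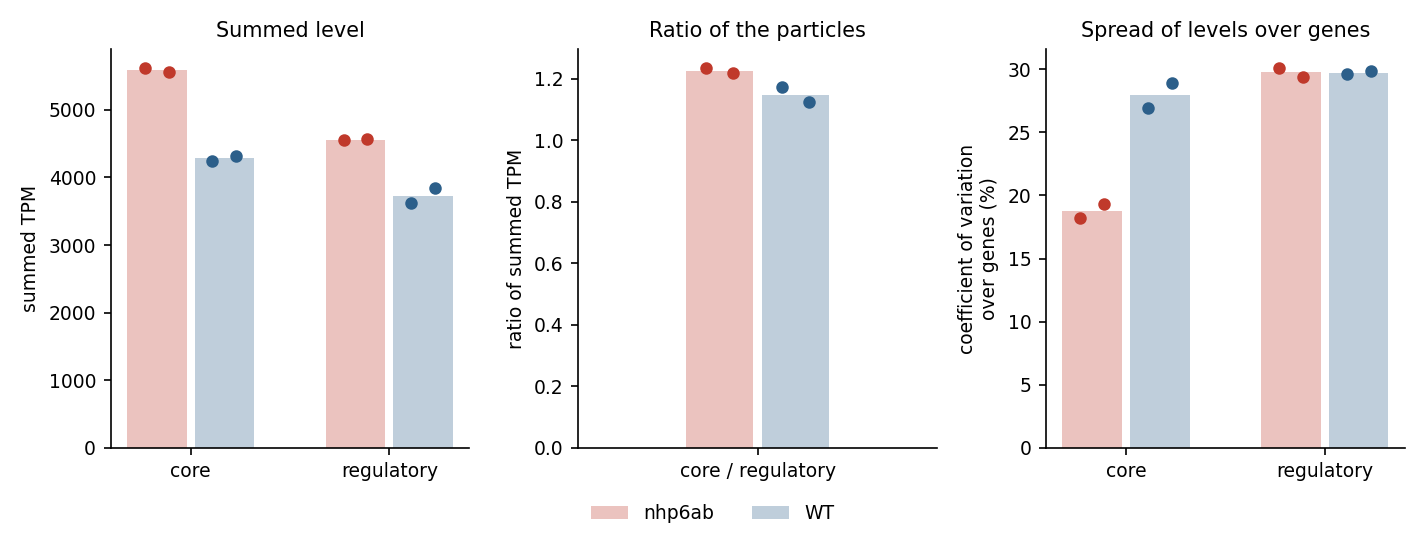
Summed TPM of core and regulatory genes (left), their ratio (middle) and the coefficient of variation of TPM over the genes of each particle (right), with points for libraries, bars for means, nhp6ab in red on the left of each pair and WT in blue. The ratio is 1.23 and 1.22 in nhp6ab and 1.17 and 1.12 in WT, and the variation among core genes is lower in nhp6ab.

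The levels of the core genes were more alike in nhp6ab than in WT. Their coefficient of variation in TPM, over the 14 genes, was 18.2 and 19.3% in nhp6ab, against 26.9 and 28.9% in WT. In regulatory genes it was 30.1 and 29.4% in nhp6ab, against 29.7 and 29.8% in WT. PUP1 had 326 and 319 TPM in nhp6ab, against 199 and 184 TPM in WT. PRE6 had 322 and 307 TPM in nhp6ab, against 206 and 199 TPM in WT. These were, after PRE4, the core genes with the lowest levels in WT, and they had the largest increases of the core genes. PRE1, the core gene with the highest level in WT, had 462 and 457 TPM in nhp6ab, against 461 and 463 TPM in WT, and was the one called lower in CPM. The order in WT and the changes were read from the same WT libraries, so they are not independent. The coefficient in CPM, which is not per length, was 20.9 and 22.3% in nhp6ab, against 25.2 and 27.8% in WT. Among regulatory genes RPN11 had the highest level in nhp6ab (385 and 372 TPM), whereas RPT1 had the highest in WT (302 and 320.2 TPM), and RPN1 the lowest in both strains.

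Members also differed between replicates of a strain. All 14 core genes had more CPM in nhp6ab replicate 1 than in replicate 2, with a median log2 difference of 0.045, as did 14 of 18 regulatory genes and 3196 of all 6422 genes tested. In WT, 10 core genes but 3 regulatory genes had more CPM in replicate 1, as did 3224 of all genes tested. The ratio of the particles thus varied between the WT libraries as well, and PUP1 and PRE6 differed by 0.17 and 0.11 on the log2 scale between them.

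Genes that assemble the proteasome or work with it were taken from lists of 54 genes, all of which passed the filter. Of these 12 were called higher and 16 lower, with a median of -0.014. Among all genes tested 24.5% were called higher and 25.0% lower, and the shares over the 54 genes are near that background. Of the 9 assembly chaperones 2 were called higher and 4 lower. NAS2, NAS6, RPN14 and HSM3, which bind the Rpt ATPases while the base is built, were the 4 called lower, and IRC25 and UMP1, which act on the core particle, were the 2 called higher. PBA1, ADD66 and POC4, also chaperones of the core particle, had 0.043, 0.055 and 0.11 and were not called. NAS2, UMP1, PBA1, ADD66 and POC4, and CDC48, DDI1 and UBP2 among the genes described last, lay outside the rule for named genes and were chosen after their values were seen.

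HSM3 had 37.7 and 38.3 CPM in nhp6ab, against 49.2 and 54.7 CPM in WT (-0.45 ± 0.070 SE, adjusted p = 0.00203, edgeR). RPN14 had 46.2 and 45.9 CPM in nhp6ab, against 58.0 and 60.4 CPM in WT (-0.36 ± 0.055 SE, adjusted p = 0.00182). NAS6 had 48.8 and 47.7 CPM in nhp6ab, against 55.6 and 57.0 CPM in WT (-0.22 ± 0.054 SE, adjusted p = 0.0128), a call lost without WT replicate 2 (0.0793). In each the nhp6ab libraries lay below the WT libraries in CPM, as in 38.7% of all genes tested. IRC25 had 56.3 and 57.4 CPM in nhp6ab, against 46.5 and 45.1 CPM in WT (0.31 ± 0.054 SE, adjusted p = 0.00343), and was called under all 14 alternatives. NAS2 (-0.18 ± 0.060 SE, adjusted p = 0.0456) lost its call in DESeq2 (adjusted p = 0.176), in limma-voom (0.0506), with the filter of 10 CPM (0.053) and without any one library, and UMP1 (0.20 ± 0.057 SE, adjusted p = 0.0236) lost it without nhp6ab replicate 1 (0.0757), WT replicate 1 (0.117) or WT replicate 2 (0.102). On the log2(TPM + 1) scale, where the median of all genes was 0.28, HSM3 had -0.15, RPN14 -0.067, NAS6 0.069 and NAS2 0.11, none of them called, and with library size alone RPN14 (-0.15, adjusted p = 0.075) and NAS6 (-0.011) were not called either.

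**Figure D5:**
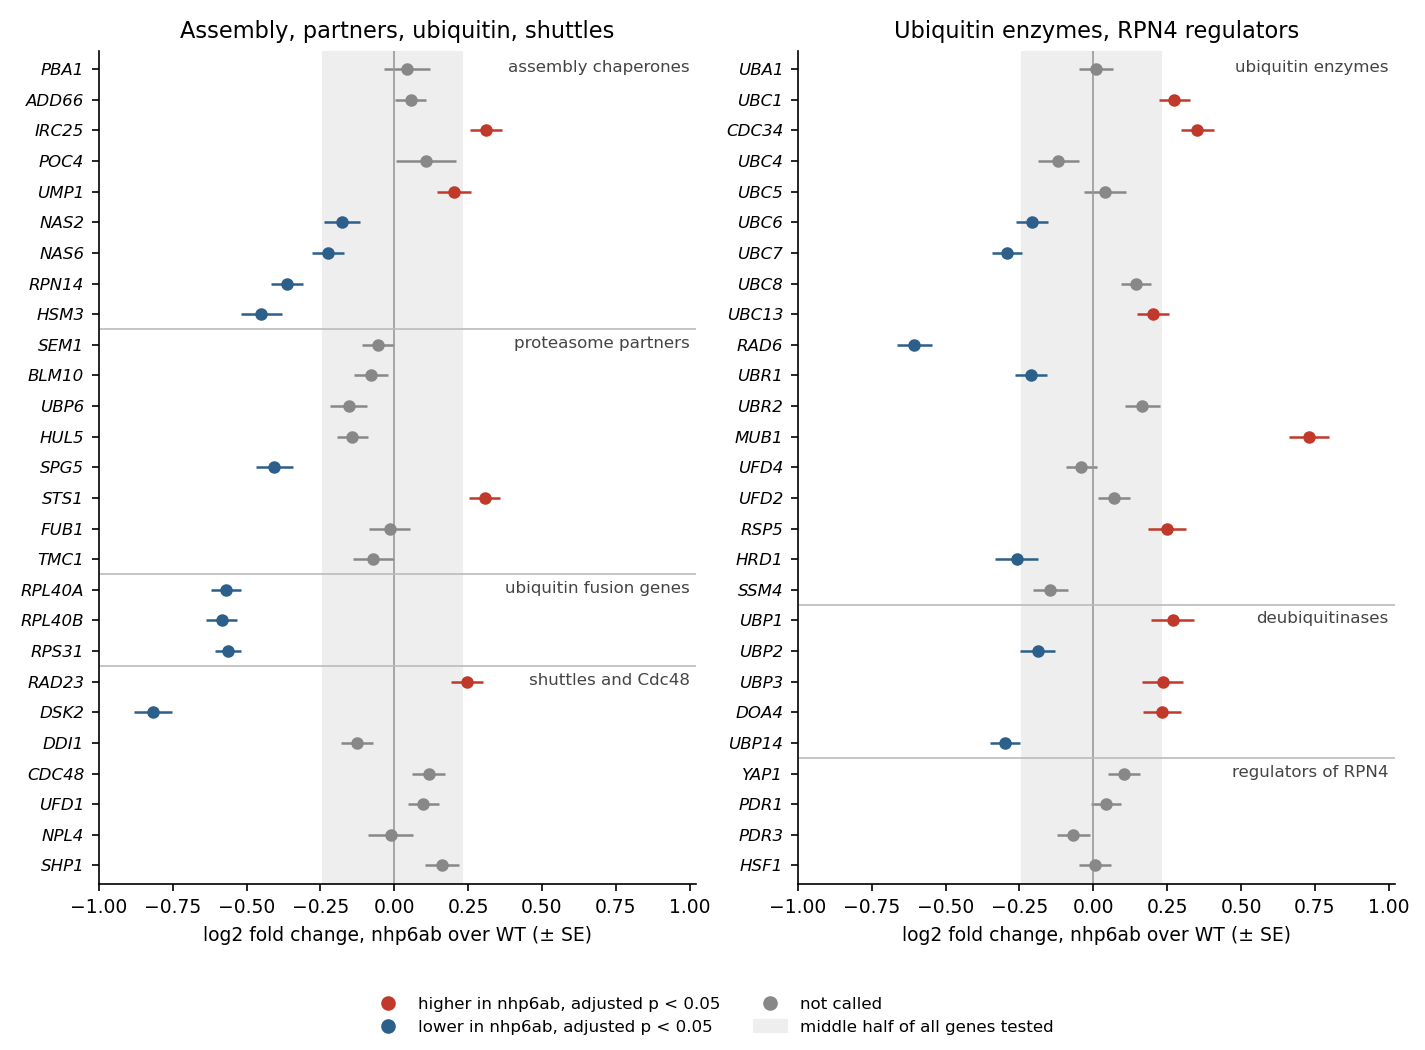
Log2 fold change with its standard error (x axis), nhp6ab over WT, of 54 genes that assemble, supply or work with the proteasome, by list. Red and blue points passed an adjusted p of 0.05 in edgeR; MUB1 lies furthest to the right at 0.73 and DSK2 furthest to the left at -0.82.

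Among the partners of the assembled proteasome, STS1, which places proteasomes in the nucleus, rose, with 143 and 139.6 CPM in nhp6ab, against 114 and 115 CPM in WT (0.31 ± 0.051 SE, adjusted p = 0.00282, edgeR). SPG5, a proteasome regulator of stationary phase, fell, with 56.4 and 50.8 CPM in nhp6ab, against 71.7 and 70.3 CPM in WT (-0.41 ± 0.064 SE, adjusted p = 0.00215), a call lost on log2(TPM + 1) (-0.11). The other 6 genes on the list of partners were not called, where 24.5% of all genes were called higher and 25.0% lower. Of the shuttle factors, which bring ubiquitinated proteins to the proteasome, DSK2 fell and RAD23 rose, and DDI1 was not called (-0.13). DSK2 had 172 and 160.02 CPM in nhp6ab, against 302 and 282 CPM in WT (-0.82 ± 0.066 SE, adjusted p = 0.000124). RAD23 had 251 and 248 CPM in nhp6ab, against 213 and 208 CPM in WT (0.25 ± 0.054 SE, adjusted p = 0.00862), a call lost without WT replicate 2 (0.058). CDC48, the ATPase that extracts ubiquitinated proteins, and its cofactors were not called.

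Of 18 enzymes that activate, conjugate or ligate ubiquitin 5 rose and 5 fell, close to the 24.5% and 25.0% of all genes. After MUB1 and RAD6, the calls with the smallest p were those of CDC34, the conjugating enzyme of SCF ligases (0.35 ± 0.056 SE, adjusted p = 0.00224, edgeR), and UBC7, which serves degradation at the endoplasmic reticulum (-0.29 ± 0.051 SE, adjusted p = 0.00339). Of 5 deubiquitinases 3 were called higher and 2 lower, where 24.5% and 25.0% of all genes were. UBP1 (0.27), UBP3 (0.23) and DOA4 (0.23), which recovers ubiquitin from proteins bound for the vacuole, rose, and UBP14 (-0.30), which takes apart free ubiquitin chains, and UBP2 (-0.19, adjusted p = 0.0333, edgeR) fell. In TPM the nhp6ab libraries of UBP2 lay above those of WT, at 21.9 and 20.9 TPM in nhp6ab, against 19.6 and 20.2 TPM in WT. UBP1 lost its call without WT replicate 1 (adjusted p = 0.125, edgeR), UBP3 without WT replicate 2 (0.149) and DOA4 without nhp6ab replicate 2 (0.098) or WT replicate 2 (0.11) and in DESeq2 (0.0648). UBC7 and UBP14 were not called with library size alone (adjusted p = 0.259 and 0.214), and on log2(TPM + 1) their estimates were -0.00016 and -0.0065 (adjusted p = 0.999 and 0.936 in limma).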

How the data were processed

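The authors deposited RSEM expected counts per gene and RSEM TPM values, per the sheet names, on build sacCer3, which the submitters' processing notes give. The aligner was not given in the sources used here, nor were the RSEM version, the annotation and any strand setting. RSEM divides reads that fit several genes by estimate. The deposited expected counts were rounded, filtered for low counts by the tool's default and tested with edgeR 4.0.16 (R 4.3.3) on TMM factors. Strain was the single term, which leaves 2 residual degrees of freedom. The Benjamini-Hochberg adjustment ran over 6422 genes, and a gene was called under 0.05. CPM values use the TMM factors. Standard errors are the log2 fold change over the square root of F. Deposited TPM, which are scaled for length and library total, gave levels between genes and an alternative fitted with limma 3.58.1. Other alternatives took another scaling (upper quartile, DESeq2's factors, none beyond library size), another tool (DESeq2 1.42.0, limma-voom), another low-count filter, a replicate term, or 1 library fewer. Symbols and coordinates are from RefSeq R64, which 6005 identifiers matched. Expression values are from the deposited tables alone; the files were given with 4 emptied lines each. Fits were also run on simulated counts, in which far fewer genes were changed than were called here. That run is no measure of the calls in these data. Replicates differed by more than counting noise (chi-square per degree of freedom 22.4 in nhp6ab and 24.7 in WT).

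The members, the pathway lists and the tests were chosen with earlier results of these data known. The rule for named genes took all members, NHP6A, NHP6B, up to 4 called genes with the smallest p of each list (2 by unadjusted p where none was called), all ubiquitin fusion genes, all listed regulators of RPN4, UBR2 and MUB1.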

Additional observations from a re-analysis of the deposited data

How the results depend on the processing

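The counts and medians moved most with scaling. With library size alone 3023 genes were called higher and 800 lower, core genes had a median of 0.33 (12 higher, 0 lower) and regulatory genes 0.24 (12 higher, 0 lower). On log2(TPM + 1) the values were 3566 and 617 genes, 0.41 (13 and 0) and 0.32 (14 and 0), and on log2(TPM + 0.1) 3558 and 614 genes, 0.42 (13 and 0) and 0.32 (14 and 0). Core genes called higher numbered 6 in limma-voom and with the filter of 10 CPM, where PRE8 passed. Regulatory genes called lower numbered 3 with upper quartile factors and in limma-voom, and 2 in DESeq2 and with the filter of 10 CPM. Leaving out 1 library gave 901 to 1462 genes higher, 1063 to 1557 lower, 2 to 4 core genes higher, 1 core gene lower, 0 to 1 regulatory genes higher and 0 to 1 lower, core medians of 0.086 to 0.15 and regulatory medians of 0.00022 to 0.059. The ratio of particles, nhp6ab over WT, ranged from 1.04 to 1.09 without 1 library.

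Some estimates changed sign, among them those of RPN7, NAS6 and NAS2, which were called lower. With library size alone these were SCL1 (0.13), PRE3 (0.19), RPT1 (0.16), RPT4 (0.054), RPT5 (0.065), RPT6 (0.067), RPN5 (0.099), RPN6 (0.13), UBI4 (0.084), PDR3 (0.14) and NAS2 (0.036). On log2(TPM + 1) they were SCL1 (0.22), PRE3 (0.27), RPT1 (0.24), RPT4 (0.14), RPT5 (0.15), RPT6 (0.15), RPN5 (0.18), RPN6 (0.21), RPN7 (0.068), UBI4 (0.17), NAS6 (0.069), PDR3 (0.21) and NAS2 (0.11), and on log2(TPM + 0.1) the same genes, with the same rounded values except NAS6 (0.070), NAS2 (0.12) and PDR3 (0.22). With upper quartile factors RPN3 (-0.0054) and HSF1 (-0.011) changed sign. Leaving out 1 library gave ranges that crossed zero for PRE10 (-0.0020 to 0.052), PUP3 (-0.049 to 0.098), RPN10 (-0.0033 to 0.063), RPN13 (-0.041 to 0.10) and HSF1 (-0.025 to 0.034).

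Replicate numbers gave no sign of pairing (correlation of replicate differences between strains -0.070 over genes). With 2 libraries per strain this value cannot show that pairing was absent. With a replicate block 4 core genes were called higher and 0 regulatory genes, PRE2 (adjusted p = 0.0536) and RPN11 (0.0568) losing their calls. The causes were not tested beyond the shift of the median gene with scaling. Depth did not limit the members, but 2 libraries per strain limit every estimate.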
